A study of Mus musculus with 12 samples.

Results

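The tRNA-Cys entries are the transfer RNAs that carry cysteine, and they were taken as every table row whose entry name begins with tRNA-Cys. They made up 3671 of the 28302 rows and 54 of the 404 tRNA entries. Entries with identical values in all 12 libraries were counted once, which left 1355 of 14170 rows and 22 of 213 entries. GCA-4-1 stands for 29 entries, GCA-3-1 for 4 and GCA-1-1 for 2. Entries are called by the name that follows tRNA-Cys, in which GCA is the anticodon and the first number tells the isodecoders apart. Isodecoders share an anticodon and differ elsewhere in sequence.

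The RNA came from hematopoietic stem and progenitor cells of wildtype mice, either young or old. The labels used here give no age in months and name no animal for a library. The p-values then reflect only how much these libraries varied, which may be technical. All libraries were made from small RNA under 200 nt that had been treated with wild-type AlkB and the D135S mutant of AlkB, which remove methyl groups that block reverse transcriptase. The 4 groups of 3 libraries were young BEU, young CMC, old BEU and old CMC, where BEU is the buffer alone and CMC is a carbodiimide added to it. The tables hold tRNA rows, so markers of the cell type were not checked.

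Pseudouridine is an isomer of uridine that forms after transcription, and CMC left on it halts reverse transcriptase. PUS1 is known to act at positions 27 and 28 of the anticodon stem, PUS3 at position 39 on the other side of that stem, and TRUB1 and PUS10 at position 55 of the T loop. PUS10, which the series title names, is also known to act at position 54. The stop rate is the share, in percent, of the reads over a base whose copy ended at it, and the rise is the stop rate with CMC minus that in the BEU library of the same age and number, in percentage points.

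The complete entries GCA-3-1, GCA-2-1 and GCA-1-1 are shown because the results turn on how they differ. Each has 74 bases, written as DNA 5′ to 3′, with T27, T28, T39, T54 and T55 in capitals. Numbering follows the usual tRNA scheme, which leaves out position 17 here, so the last base is position 75.
tRNA-Cys-GCA-3-1: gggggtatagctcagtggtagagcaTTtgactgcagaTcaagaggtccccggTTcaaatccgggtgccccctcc
tRNA-Cys-GCA-2-1: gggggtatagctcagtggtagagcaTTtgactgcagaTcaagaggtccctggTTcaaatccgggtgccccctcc
tRNA-Cys-GCA-1-1: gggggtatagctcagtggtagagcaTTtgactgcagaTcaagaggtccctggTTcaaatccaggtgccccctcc
Relative to GCA-3-1, GCA-2-1 carried C51T and GCA-1-1 carried C51T and G63A. Positions 51 and 63 face each other in the T stem.

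The 20 bases 3′ of T55, positions 56 to 75, are shown because a read that stops at T55 holds only these bases of the tRNA. Capitals mark bases that differ from GCA-3-1. The 18 entries that list T55 had 5 such tails. The first belonged to GCA-3-1, GCA-7-1, GCA-2-1 and GCA-5-1, the second to 11 entries that include GCA-1-1 and GCA-4-1, and the others to 1 entry each.
GCA-3-1 tail: caaatccgggtgccccctcc
GCA-4-1 tail: caaatccAggtgccccctcc
GCA-6-1 tail: caaatccAggtAccccctcc
GCA-10-1 tail: caaatccAgAtgccccctcc
GCA-8-1 tail: caaatccgggtgcTccctcc
RefSeq lists 56 genes for this tRNA in mouse assembly GRCm38.p6, with 48 on chromosome 6, 5 on chromosome 11, 2 on chromosome 9 and 1 on chromosome 17. Their names did not match the entries, so no coordinates are given.

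The highest coverage of each tRNA-Cys entry, summed over the 22, was 32851 to 104481 reads in BEU libraries and 6531 to 38301 in CMC libraries. Coverage never exceeded 8015, and 10 of the 22 entries reached 7500 in some library. All 10 reached it in the young BEU library 3 and the old BEU library 1. Only 3 entries were complete, and the unlisted rows of the other 19 were not analysed here. Wherever positions 27, 28, 39, 54 and 55 were listed, the base was T: in 21 entries at T27 and at T28, 20 at T39 and 18 at T54 and at T55.

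CMC raised stops at T27, T28, T39, T54 and T55 of tRNA-Cys, and no tested A, C or G passed. T51 passed too, from stop reads that are also listed at C51 of other entries. A site was called when edgeR's quasi-likelihood test gave a Benjamini-Hochberg adjusted p under 0.05, the mean rise was at least 10 points and the rise was seen in all 3 pairs. In young cells 52 of 184 T sites were called, 28.3% against 18.8% of all T sites tested. In old cells 44 were called, 23.9% against 20.3%, and all 44 were among the young 52. The 8 called only in young cells were at T27 and T54, where their old rise was under the 10 points of the rule. None of 605 A, C and G sites of tRNA-Cys was called in either age, where 0.394% and 0.673% of all such sites were. The 184 sites are not independent, because many entries hold the same stop reads. At 127 of them the coverage had reached the ceiling in some library, and of the 57 others 12 were called in each age. No site was called at T20, T29, T33, T47, T60, T66, T69 or T73.

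**Figure D1:**
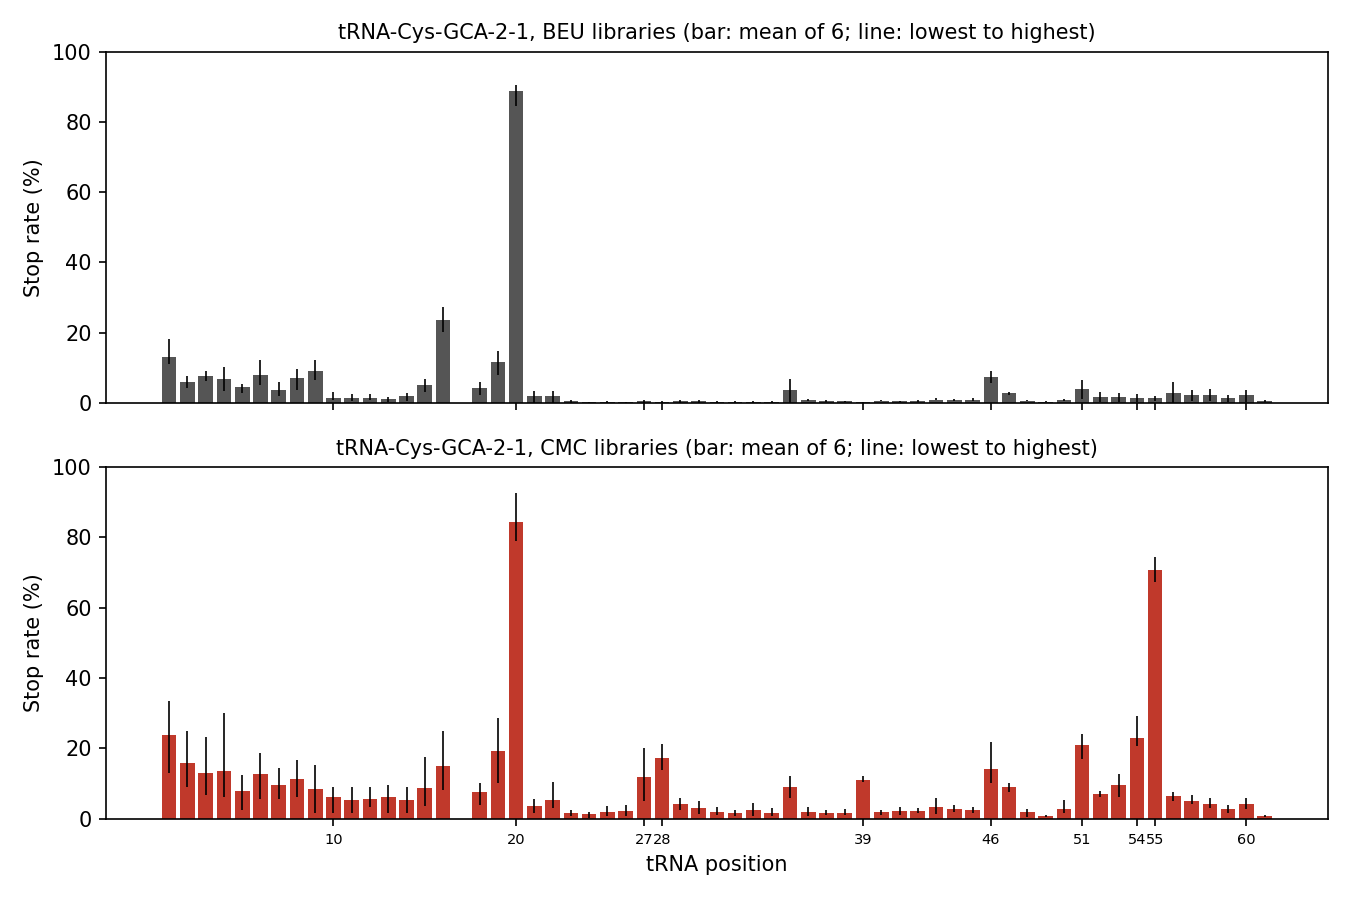
Stop rate in percent at each base of tRNA-Cys-GCA-2-1 by tRNA position, for the 6 BEU libraries above and the 6 CMC libraries below; bars are means and lines run from the lowest to the highest library. T20 is high in both panels, and T55 is high only in the CMC panel, at 67.2% to 74.3%.

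T55, the position of the pseudouridine in the name of the TΨC loop, had the highest rises. It was tested in 16 entries and called in 13 in each age. In GCA-3-1, the best-covered entry, the stop rate was 1.01%, 1.21% and 0.452% in young BEU libraries and 55.8%, 49.6% and 53.2% with CMC. In old cells it was 0.679%, 1.28% and 1.28% without CMC and 49.8%, 56.7% and 47.1% with it. The BEU and CMC libraries did not overlap in either age. The rise was 52 ± 3.3 points in young and 50.1 ± 4.9 points in old cells (SD, n = 3 pairs; edgeR adjusted p = 2.2e-07 and 2.9e-07). GCA-5-1 had the highest rise, 69.8 ± 3.7 and 68.9 ± 3.6 points. GCA-8-1 had the lowest, with CMC stop rates of 0.202%, 0.170% and 0.817% in young and 0.172%, 0.348% and 0.180% in old cells, and its rise of 0.378 ± 0.37 and 0.207 ± 0.097 points was not called. GCA-6-1 and GCA-10-1, the other entries with a tail of their own, rose by 2.09 and 2.86 points in young cells and were not called either.

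**Figure D2:**
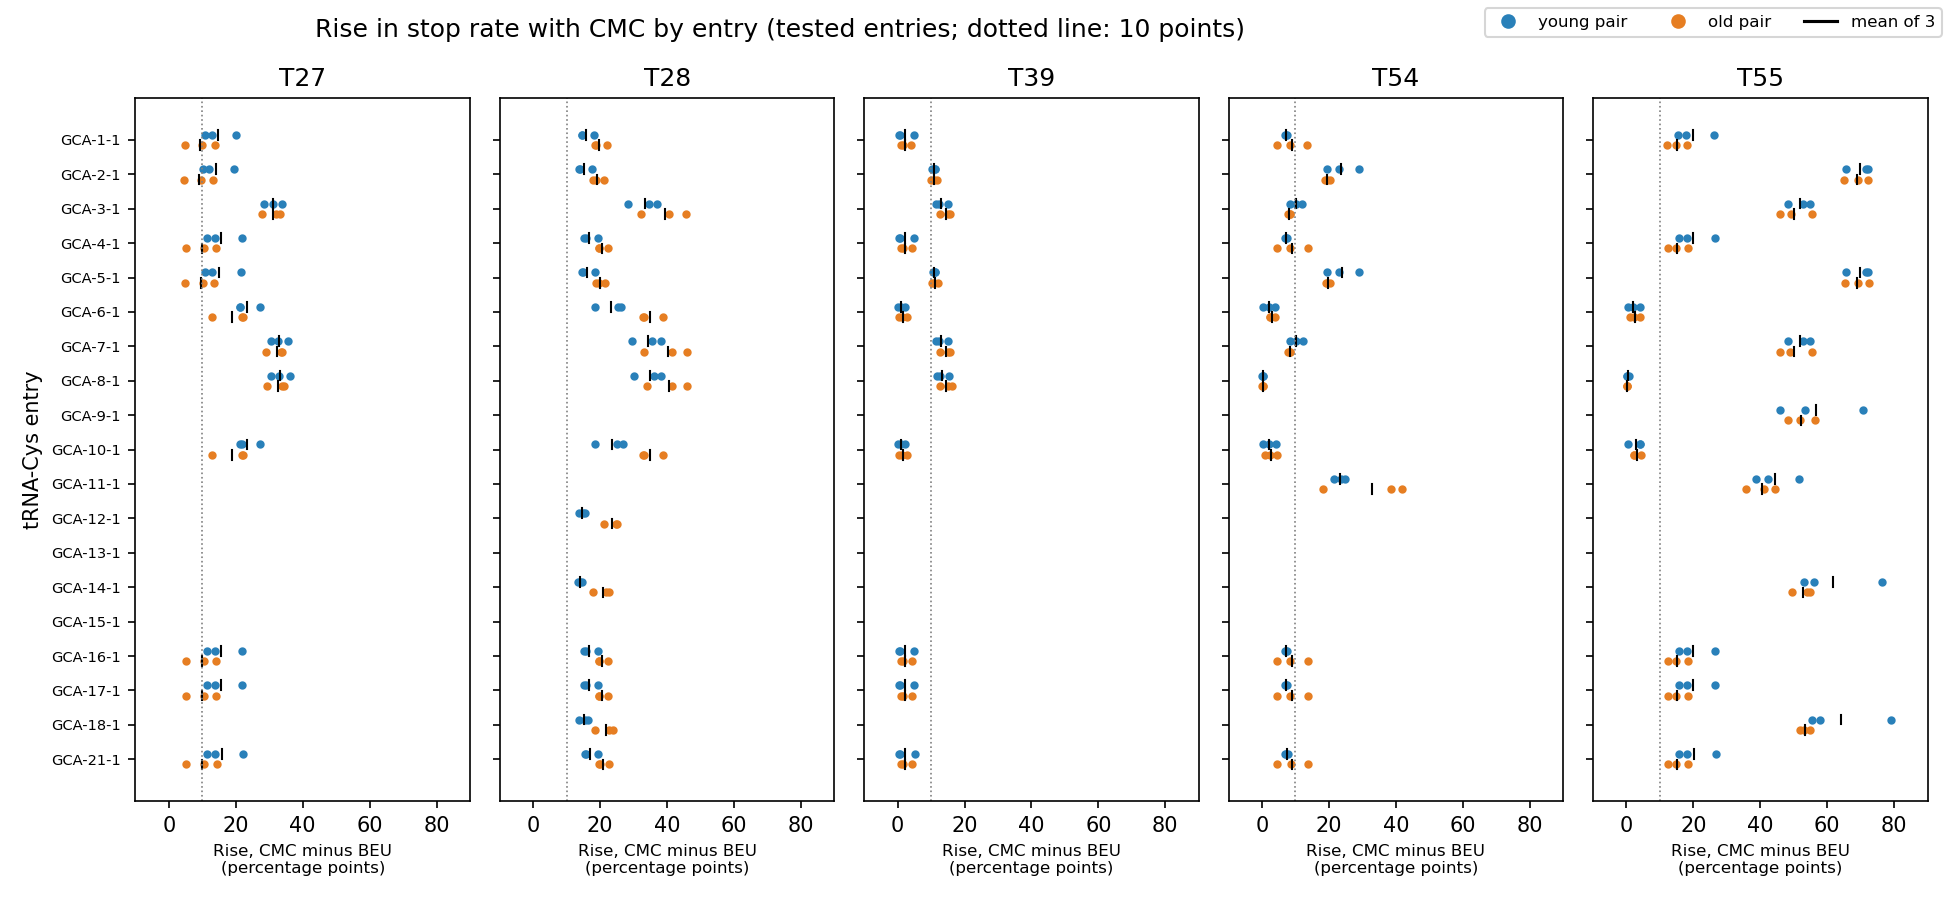
Rise in stop rate with CMC, in percentage points, for each tested tRNA-Cys entry at T27, T28, T39, T54 and T55; each point is 1 pair of libraries, bars are means of 3 pairs and the dotted line marks 10 points. Entries separate most widely at T55, from under 1 point in GCA-8-1 to 69.8 points in GCA-5-1.

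The stop reads at T55 followed the tail and not the rest of the entry. All 11 entries with the GCA-4-1 tail held the same number of stop reads in each of the 12 libraries. With CMC these were 18, 86 and 23 in young and 16, 16 and 28 in old libraries. The 4 entries with the GCA-3-1 tail held 1138, 3790 and 666 stop reads in young and 916, 654 and 1511 in old CMC libraries, and were identical in 10 of 12 libraries. The 2 that differed were the young BEU library 3 and the old BEU library 1. GCA-6-1, GCA-10-1 and GCA-8-1 held 1 to 4 stop reads in every CMC library, where 1 is the lowest value in the tables.

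Entries of 1 tail therefore differed in stop rate through their coverage. Within the GCA-4-1 tail the coverage at T55 ran from 131 to 547 reads in the young CMC library 2, over the same 86 stop reads, and the stop rate over the 6 CMC libraries ran from 12.3% to 82.1%. In GCA-14-1, which also carried G52A, it was 56.2%, 54.1% and 76.7% in young cells, against 18.2%, 15.8% and 26.4% in GCA-4-1. Within the GCA-3-1 tail the rate ran from 47.1% to 74.4%. The labels and headers used here do not say how reads that match several entries were assigned, so a rate at T54 or T55 cannot be told apart between entries of 1 tail.

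**Figure D3:**
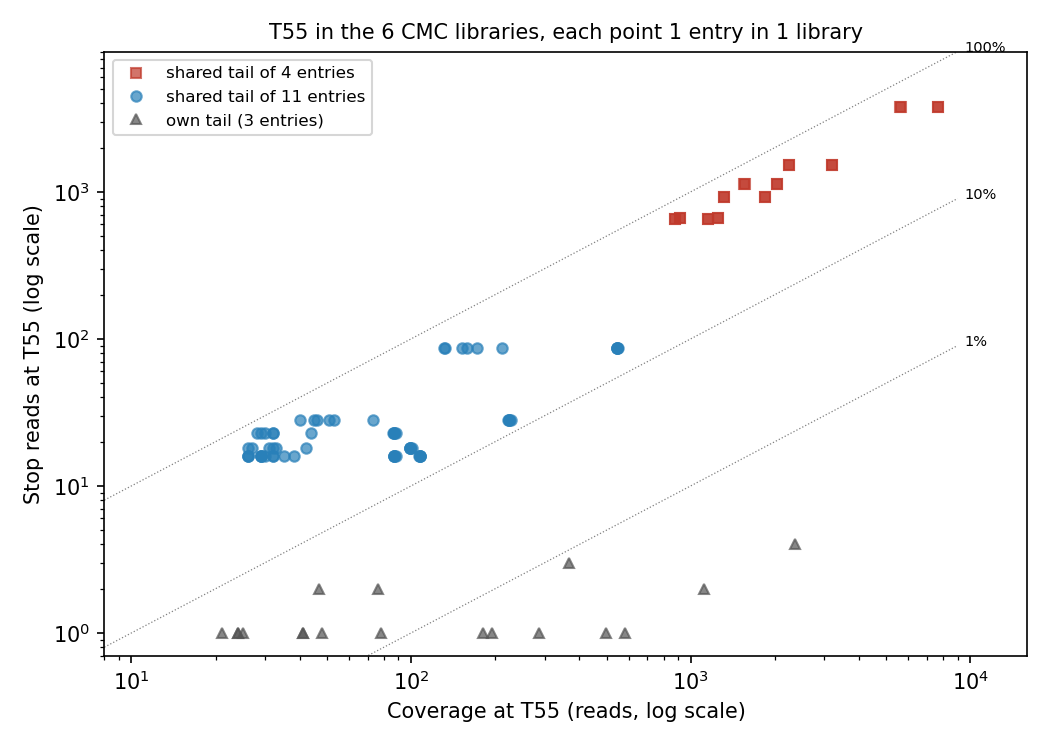
Stop reads at T55 against coverage at T55, both on log scales, for each entry that lists T55 in each of the 6 CMC libraries; dotted lines mark stop rates of 1%, 10% and 100%. Points of a shared tail lie in horizontal rows, 1 row per library, such as the 86 stop reads held by 11 entries at coverages of 131 to 547.

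T54, the base before T55 that PUS10 is known to modify, had smaller rises. It was tested in 13 entries and called in 5 in young and 3 in old cells. In GCA-3-1 the CMC stop rate was 11.5%, 10.3% and 12.4% in young and 8.71%, 9.31% and 8.97% in old libraries, against 0.228% to 1.75% in the BEU libraries. Its rise was 10.3 ± 1.8 points in young cells (edgeR adjusted p = 0.0015) and 8.22 ± 0.40 points in old cells, just under the 10 points of the call rule, and without the young pair 3 the young mean was 9.37 points. GCA-2-1 and GCA-5-1 held the same CMC stop reads over lower coverage, and GCA-2-1 rose by 23.7 ± 4.8 and 19.5 ± 0.69 points. GCA-11-1 had the highest rise over the 6 pairs, 23.3 ± 1.6 points in young and 32.8 ± 13 points in old cells, and GCA-8-1 the lowest, 0.150 and 0.167 points. In young CMC libraries GCA-11-1 held the GCA-4-1 tail's 6, 33 and 5 stop reads over coverage of 25, 126 and 22 reads. GCA-1-1 held the same stop reads over 84, 464 and 66, so the rank of GCA-11-1 depends on coverage. With CMC, GCA-2-1 held 9.05, 10.3 and 10.8 stop reads at T54 per 100 at T55 in young and 8.73, 7.03 and 9.99 in old libraries. For the GCA-4-1 tail the ratio was 33.3, 38.4 and 21.7 in young and 50.0, 62.5 and 32.1 in old libraries, from 5 to 33 stop reads at T54. The ranges of the 2 tails did not overlap, a comparison chosen after the values were seen and not tested.

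T28, a base of the anticodon stem, was called in all 15 entries tested, in both ages. In GCA-3-1 the CMC stop rate was 29.5%, 35.7% and 37.0% in young and 45.7%, 33.3% and 41.3% in old libraries, and the BEU stop rate was 0.025% to 1.21%. The rise was 33.3 ± 4.5 and 39.4 ± 6.8 points (edgeR adjusted p = 0.0033 and 0.0018). GCA-8-1 rose most, by 34.8 ± 4.2 and 40.5 ± 6.0 points, and GCA-2-1 least over the 6 pairs, by 15.1 ± 2.1 and 19.2 ± 1.8 points. GCA-6-1 and GCA-10-1 lay between, at 29.1 and 29.2 points over the 6 pairs. GCA-3-1, GCA-7-1 and GCA-8-1 shared their stop reads in the young CMC libraries, 71, 419 and 64, against 21, 106 and 11 for GCA-2-1, GCA-5-1 and GCA-1-1. The 15 entries held 8 different sets of stop reads.

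T27, beside it in the stem, was called in all 12 entries tested in young cells and in 6 in old cells. The lower old count depends on the 10-point rule. GCA-21-1, called in old cells at 10.0 points, held 12, 3 and 19 stop reads in the old CMC libraries. GCA-17-1 held the same reads, and at 9.85 points (edgeR adjusted p = 0.00096) was not called. GCA-2-1, lowest in old cells at 9.09 points, held them too. In GCA-3-1 the CMC stop rate was 30.3%, 32.9% and 34% in young and 33.3%, 34.5% and 30.1% in old libraries. The BEU stop rate was 1.96%, 1.89% and 0.037% in young and 0.025%, 2.39% and 2.20% in old libraries. The young BEU library 3 and the old BEU library 1 were at the ceiling at this base, and the part of the ceiling in this was not tested. The rise was 31.1 ± 2.8 points in both ages (edgeR adjusted p = 0.015 in each). Leaving out the young pair 1 or 3 gave adjusted p = 0.053 and 0.061 for the young rise, with means of 32.5 and 29.7 points. GCA-8-1 rose most, by 33.2 ± 2.7 and 32.5 ± 2.8 points, and its call was lost without the young pair 1 or 3 in young cells (adjusted p = 0.067 and 0.080) and without the old pair 1 or 2 in old cells (0.0503 and 0.059). In young CMC libraries it held 43, 211 and 35 stop reads over coverage of 131, 604 and 97 reads. GCA-3-1 held 44, 211 and 35 over 145, 641 and 103, so their order depends on coverage. GCA-2-1 rose least, from CMC stop rates of 20.2%, 13% and 10.1% in young and 13.2%, 5.00% and 10.2% in old libraries. Its rise of 14 ± 5.0 points was called in young cells, and that of 9.09 ± 4.4 points in old cells was not, although without the old pair 2 it was 11.4 points and called.

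T39, on the 3′ side of the anticodon stem, was called in 5 of 12 entries in both ages. The 5 were the entries with G63, and the 7 others tested carried G63A. Entries shared stop reads here too, and the 12 held 6 different sets. In young CMC libraries GCA-3-1, GCA-7-1 and GCA-8-1 held 58, 272 or 273, and 52 stop reads, and GCA-2-1 and GCA-5-1 held 18, 87 and 10. GCA-1-1, GCA-4-1, GCA-16-1, GCA-17-1 and GCA-21-1 held 1, 3 and 4, and GCA-6-1 and GCA-10-1 held 1 in each. In GCA-7-1, the best covered, the CMC stop rate was 12.6%, 11.9% and 15.5% in young and 15.2%, 16% and 12.8% in old libraries, against 0.125% to 0.349% without CMC. The rise was 13 ± 1.9 and 14.5 ± 1.6 points (edgeR adjusted p = 1.3e-07 and 6.8e-08). GCA-8-1 rose most, by 13.3 ± 1.9 and 14.6 ± 1.7 points, and GCA-2-1 by 10.8 ± 0.48 and 10.9 ± 0.90 points. GCA-6-1 rose least over the 6 pairs, by 1.08 ± 0.96 and 1.59 ± 1.2 points, from 1 stop read in every library over 34 to 384 reads of CMC coverage. The split between G63 and G63A was noticed in the values and was not tested.

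T51, a T-stem base, was called in GCA-2-1 and GCA-5-1 of 9 entries tested. In GCA-2-1 the CMC stop rate was 24.1%, 16.9% and 21.6% in young and 23.2%, 19.0% and 20.0% in old libraries, and the BEU stop rate was 1.20% to 6.58%. The rise was 15.7 ± 4.8 and 18.1 ± 3.4 points (edgeR adjusted p = 0.001 and 5.2e-05). GCA-5-1 rose by 16.5 ± 5.4 points in young cells, and its call was lost without the young pair 1 or 3 (adjusted p = 0.17 and 0.23) and without the old pair 2 or 3 (0.052 in each). GCA-1-1 had the lowest rise, 0.931 ± 0.35 and 2.16 ± 1.0 points. The same 61, 199 and 33 stop reads of the young CMC libraries were also listed at C51 of GCA-3-1 and GCA-7-1. Those entries have no T there, so these reads cannot be assigned to T51.

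The isodecoders were compared with each other at sites below the ceiling, against GCA-6-1, the best-covered such entry at each position. Of 13 comparisons, 8 reached p = 0.03125 in a two-sided exact sign-flip permutation test, the smallest that 6 pairs allow, and their adjusted p was 0.051, so none passed 0.05. At T55, GCA-14-1 rose by 55.1 ± 8.9 points more than GCA-6-1 (SD over 6 pairs, higher in 6 of 6). GCA-6-1 held 1 stop read there in every library, the lowest value in the tables. GCA-14-1, GCA-18-1, GCA-9-1 and GCA-11-1, all at the smallest p at T55, held the shared stop reads of the GCA-4-1 tail. They are thus not separate observations. At T28, GCA-14-1 differed from GCA-6-1 by -11.8 ± 4.2 points, lower in 6 of 6 pairs. With sites at the ceiling included, 50 of 63 comparisons passed. In 9 of the 63, 7 of them passing, both entries held identical stop reads in all 6 CMC libraries, so that their CMC stop rates differed through coverage alone. Of the 54 others 43 passed, 3 with a higher and 40 with a lower rise than the reference. These 43 are not separate observations either. The 3 include GCA-8-1 at T27 and T28, whose CMC stop reads differed from those of GCA-3-1 in 1 library each. They were 43 against 44 in young library 1 at T27, and 214 against 215 in old library 3 at T28. The 40 repeat shared reads, such as those of GCA-17-1, GCA-4-1, GCA-16-1 and GCA-21-1 at T27. At T28, GCA-2-1 then stood at 17.1 points against 36.4 for GCA-3-1, with different stop reads.

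No tRNA-Cys site passed the test for an age difference in its rise. Of 50 T sites in the age test, whose rise averaged at least 10 points over the 6 pairs, 0 passed in edgeR's interaction test, as did 0% of all 439. The lowest adjusted p was 0.95, and 0 of the 50 had an unadjusted p under 0.05, against 6.15% of all. limma and DESeq2 also gave 0. At 13 of the 50 the 3 old pairs lay wholly above or below the 3 young ones, 26% against 13% of all, and 12 of these 13 were at T28, where several entries share stop reads. The old rise minus the young had a median of -0.71 points over tRNA-Cys and 1.39 points over all sites, with 23 of 50 and 290 of 439 higher in old cells.

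At T28 the mean rise was higher in old cells in all 15 entries, by 3.88 to 11.5 points, and 12 did not overlap. At T27 the mean was higher in old cells in 0 of 12 entries and at T55 in 0 of 13, against 5 of 5 at T39, 2 of 2 at T51 and 1 of 3 at T54. These entries are not separate observations. The 13 at T55 held the CMC stop reads of the GCA-3-1 or the GCA-4-1 tail, and the 2 at T51 held the same CMC stop reads. At T27, GCA-1-1, GCA-4-1, GCA-16-1, GCA-17-1 and GCA-21-1 shared theirs, and at T39 GCA-2-1 and GCA-5-1 did. The highest difference was at T28 of GCA-6-1, with rises of 18.6, 26.3 and 25.2 points in young and 33.1, 38.8 and 32.8 points in old cells. This was 11.5 ± 3.1 points (SE), and GCA-10-1, with the same stop reads, differed by 11.3 ± 3.2 points, both with an adjusted p of 0.95. T54 of GCA-11-1 differed by 9.53 ± 7.4 points, and T28 of GCA-12-1 and GCA-14-1 by 9.01 ± 1.3 and 6.83 ± 1.5 points. The lowest were T55 of GCA-18-1, at -10.9 ± 7.5 points, and T55 of GCA-14-1, at -9.0 ± 7.5 points, where the young pair 3 stood at 79.1 and 76.4 points and the other young pairs at 53 to 57.9. T27 of GCA-21-1, GCA-17-1 and GCA-4-1 followed, at -5.80, -5.75 and -5.75 points. At these last 8 sites the adjusted p was 0.999. The interaction test compares the odds of a stop against read-through, not points, and the scales can differ in direction. On log2 odds these T27 sites were higher in old cells, by 0.65, 0.64 and 0.64. T28 of GCA-12-1 and T54 of GCA-11-1 stood at -0.04 and -0.05 on that scale. The other named sites kept their direction.

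Without CMC, T20 of the D loop, named for dihydrouridine, had the highest stop rates. The stop rate was highest in GCA-21-1, at 98.3%, 98.0% and 97.9% in young and 97.3%, 97.9% and 98.1% in old BEU libraries. GCA-21-1 lists no base 5′ of T20. The complete entry GCA-1-1 held the same 3283, 2755 and 6416 stop reads in young BEU libraries. Its coverage there was 3682, 3091 and 7114 reads, against 3341, 2810 and 6557 in GCA-21-1, so this order follows coverage. Over the 10 entries tested the mean was 88.1% to 98.1%, and none was called with CMC. The complete entries GCA-3-1, GCA-2-1 and GCA-1-1 had the lowest means, 88.1% to 89.5%. At A58 of GCA-13-1 the rate was 14.8%, 18.3% and 11.9% in young and 8.99%, 13.6% and 16.7% in old libraries. These were 9, 11 and 15 stop reads in young BEU libraries, and 12 entries, GCA-13-1 among them, held the same ones. Coverage at A58 over the 12 ran from 27 to 2881, 22 to 2184 and 43 to 6006 reads, so this rate depends on the coverage of the entry. At C35, the middle base of the anticodon, GCA-8-1 stood at 16.6% and 15.4% in young BEU libraries 1 and 2 and at 16.2% and 18.0% in old BEU libraries 2 and 3. The young BEU library 3 and the old BEU library 1, both at the ceiling in this entry, stood at 0.028% and 0.026%, and the part of the ceiling in this was not tested.

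Of 23 tRNA-Cys bases tested for an age difference without CMC, 0 passed in edgeR, where 0.756% of all 1190 bases were lower and 0% higher in old cells, and limma gave 0 too. At an unadjusted p under 0.05 there were 2, against 12.3% of all, and 2 did not overlap, against 21.2%. These were G46, a base of the variable loop, in GCA-2-1 and GCA-5-1. At G46 of GCA-3-1 and GCA-7-1 the ages overlapped (edgeR adjusted p = 0.93 and 0.998). There the young BEU library 3 stood at 2.69% and 0.67%, and the old BEU library 1 at 0.64% and 0.71%. In all of these entries coverage at or 5′ of G46 had reached the ceiling in 2 libraries, and its part was not tested. In GCA-2-1 the BEU stop rate was 8.10%, 8.99% and 8.79% in young and 5.94%, 5.58% and 6.59% in old libraries, 8.63% ± 0.47 against 6.04% ± 0.51 (SD, n = 3; edgeR adjusted p = 0.14).

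**Figure D4:**
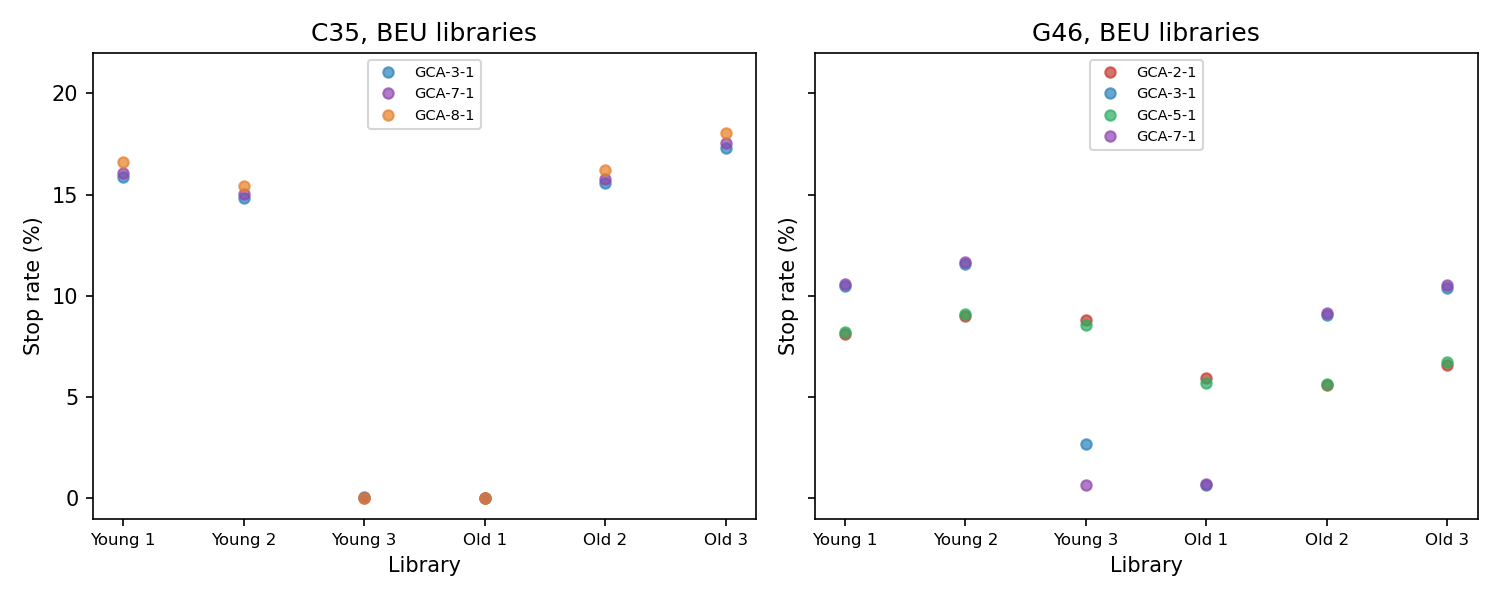
BEU stop rate in percent at C35 and G46 in each of the 6 BEU libraries, 1 point per tRNA-Cys entry in the test. The young library 3 and the old library 1 lie near 0 at C35, and at G46 the GCA-2-1 points are 8.10% to 8.99% in young and 5.58% to 6.59% in old libraries. At G46 the GCA-3-1 and GCA-7-1 points of the young library 3 and the old library 1 are 0.64% to 2.69%.

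tRNA-Cys abundance did not differ detectably between ages. The highest coverage of each entry in the BEU libraries was scaled by TMM and compared in edgeR, and 0 of 22 entries passed, as did 0% of all 213 in either direction; at an unadjusted p under 0.05 there was 1 tRNA-Cys entry and 12 in all, and DESeq2 gave 0. The 3 best-covered entries were GCA-3-1, GCA-7-1 and GCA-2-1. GCA-3-1 stood at 7969, 6687 and 8002 reads in young and 8004, 4631 and 3948 in old libraries, several of them at the ceiling, and its log2 change was -0.01 ± 0.24 (SE). GCA-7-1 and GCA-2-1 changed by -0.01 and -0.06. The lowest changes were -0.52 ± 0.22 in GCA-25-1, with 106, 129 and 225 reads in young and 147, 62 and 39 in old libraries, and -0.41 in GCA-19-1 and GCA-24-1. The highest were 0.05 in GCA-8-1, 0.01 in GCA-21-1 and 0.0013 in GCA-4-1. These 3 each reached 7500 in 2 BEU libraries, where their values are bounds. The 10 entries that reached it changed by -0.07 to 0.05. All entries that never reached it were lower in old cells, from -0.10 in GCA-6-1 to -0.52 in GCA-25-1. Entries that share reads are not separate observations. The median was -0.11 over tRNA-Cys and 0.07 over all entries. Values scaled in this way are relative to the other tRNAs, so the number of cells and the RNA per cell were not measured.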

How the data were processed

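Each of the 6 deposited tables pairs a BEU with a CMC library of the same age and number. Per the file headers a row gives coverage, which is a count of reads, then stop reads and their percent of the coverage. Bowtie2 2.3.5, Bowtie and mm10 are named in the submitters' processing notes, with no role stated. What made a read a stop was not given in the sources used here. Stops in the last rows of each entry were recorded as 1, the lowest value in the tables, and a count of 1 may be a constant.

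A coverage minimum of 20 applied in each of the 12 libraries. The effect of CMC was tested in edgeR 4.0.16 (R 4.3.3) on stop and read-through counts of each library, over all T sites and separately over other bases, with the age difference as the interaction. BEU stops were tested at bases with a mean BEU rate of at least 5%. Adjustment was by Benjamini-Hochberg over the whole series, and for the isodecoders over all comparisons made. Named entries were, at each called position, the best covered and those with the highest and lowest rise, and the 5 highest and 5 lowest age differences. In the age differences and abundance the text gives the ends of the order. Members and lists were chosen with earlier results of these data known. The fits were first tested on simulated data with known odds. Alternatives were coverage minimums of 50 and 1, 1 subtracted from every value, all entries counted, sites below the ceiling, limma 3.58.1 on log2 odds with 0.5 added, DESeq2 1.42.0, a replicate block and leaving out each pair. The reads carry no molecular identifiers, so they are not independent molecules.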

Additional observations from a re-analysis of the deposited data

How the results depend on the processing

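The young count of 52 called tRNA-Cys T sites became 79 and the old count of 44 became 106 with no coverage filter, 154 and 114 with all entries counted, and 12 and 12 below the ceiling. These settings test 301, 597 and 57 sites in place of 184. A coverage minimum of 50 gave 40 and 32, 1 subtracted gave 48 and 40, and limma and DESeq2 each gave 52 and 44. Leaving out each pair in turn gave 46 to 58 young and 42 to 55 old calls. The age tests of the rise and of BEU stops and the abundance test gave 0 calls in every alternative run. The isodecoder count of 0 became 50 with sites at the ceiling included, 7 of them between entries with identical CMC stop reads and others repeating the same reads. It could not be run at a coverage minimum of 50, and without a pair its smallest p is above 0.05, which says nothing about stability.

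With 1 subtracted, the rise turned to -0.064 points at T51 of GCA-1-1 in young cells and to -0.0044 and -0.010 points at T54 of GCA-8-1 in young and old cells; none was called. For the 26 named rises that were called, 8 alternatives that leave out no pair gave 180 values, of which 176 kept the call and 4 lost it. The 10 that were not called gave 70, of which 67 kept their direction and stayed uncalled and 3 reversed. A further 28 and 10 values could not be run, 32 of these because the site reached the ceiling. The lost calls were T27 of GCA-8-1 in both ages and T51 of GCA-5-1 in young cells with 1 subtracted, and the latter with the replicate block. Same-numbered libraries were not paired in the main edgeR fits, although the rise, the call rule and the isodecoder test do pair them. Correlations of their deviations over 439 T sites ran from -0.20 to 0.21 between BEU and CMC libraries of an age. Between young and old rises they ran from -0.38 to -0.009. The replicate block gave 51 young and 44 old calls and 0 for each age test. Precision is limited by CMC coverage, which was as low as 20 reads at some tested sites, and by the ceiling.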
